A study of Macaca mulatta with 17 samples.

Results

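AMBN, LRRTM3, PCDH8, CSMD3, TEX15, OIT3, LIX1, GAS2 and CRYGC are genes whose signals fell strongly between mid and late gestation in the uteri of control rhesus macaque fetuses. They were chosen by the size of that fall, and they are 9 of the 16411 gene names that the array carries on 20217 probes. Each was found by its symbol in the array's own description of its probes, and each of the 9 genes was named by 1 probe. The values that chose them are those of the control animals, so the control change is given here as a description. The question put to the data is whether the fall recurred in fetuses whose mothers had received bisphenol A (BPA), whose arrays are separate from those of the controls.

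The 17 arrays each held RNA from the uterus of 1 female fetus, with part of each organ used for RNA and the rest for histology. GD100 fetuses (gestational day 100) were delivered by caesarean section after their mothers had received a daily fruit treat from day 50 to day 100, with 400 µg/kg deuterated BPA (n = 5) or with vehicle (n = 5). GD165 fetuses were delivered vaginally at days 165 to 168 after treatment from day 100, with the same dose of BPA (n = 3) or with vehicle (n = 4), and uteri of stillborn fetuses were not used. The GD100 BPA and GD165 BPA groups therefore differ in age, in route of delivery and in the window and length of exposure, which cannot be told apart.

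The 9 genes share no pathway. AMBN encodes ameloblastin, a protein of the enamel matrix of the developing tooth. LRRTM3, PCDH8 and CSMD3 encode transmembrane proteins best known from neurons: LRRTM3 is a leucine-rich repeat organizer of synapses, PCDH8 a delta protocadherin of cell adhesion, and CSMD3 a very large protein with CUB and sushi domains. TEX15 is needed in meiosis and in silencing of transposons in male germ cells. OIT3 encodes a secreted protein with a zona pellucida domain and is known mainly from liver, LIX1 is expressed in developing limb and mesenchyme, GAS2 encodes a protein that links actin filaments and microtubules and is known from growth-arrested cells, and CRYGC encodes a gamma crystallin of the eye lens. The fetal uterus of mid gestation already has a muscle wall, and its glands develop from the surface epithelium in the months that follow.

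Since each gene rests on 1 probe of 60 bases, the first 30 bases are shown for AMBN, PCDH8, LRRTM3, LIX1 and CRYGC. AMBN, PCDH8, CRYGC and LRRTM3 had the largest falls in BPA-exposed uteri, and TEX15, which fell further than LIX1, is not shown. The bases run 5′ to 3′ as the array files list them, with no letters in capitals.
AMBN: aatggggattggtggaaaactcctgactgg
PCDH8: ttaattacatttggttttctgtaaaccgtg
LRRTM3: ttgttactgcttttgtgcccagaaaccttg
LIX1: cagtttagagcaaactagtcgctaaactcg
CRYGC: gcggagagtggtggatttatactgaaatag
The array files describe all 9 probes by human transcripts. None of the 9 probes shared a run of 20 bases with any other probe on the array. Their GC content ran from 28.3% for PCDH8 to 55.0% for OIT3, with a median of 36.7% against 41.7% over all probes, and 7 of the 9 lay below the median of all probes.

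Levels are log2 of the scanner's background-subtracted signal, scaled so that the 75th percentile of every array is equal. A step of 1 is a doubling or halving of signal. The scanner software marks a spot as well above background when its signal exceeds the local background by more than the noise, and each probe has 2 spots, so a value is called measured here when both were marked. Between 83.8 and 89.0% of all spots per array were marked so. The tissue label was borne out by HOXA11, DES, ACTG2, MYH11 and EMX2, defining genes of Müllerian tract and smooth muscle, which were measured on every array, while PGR, the progesterone receptor, was measured on none. Of the 14 uterine markers found, 13 were measured on all 17 arrays.

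The array of GD100 BPA replicate 1 stood apart in germ cell genes, so the change with age in BPA-exposed uteri is given below with and without it. The mean level of 18 germ cell genes was 9.60 on this array and 5.82 to 7.07 on the other 9 GD100 arrays, and 15 of the 18 were higher there than on any other GD100 array. DAZL, a germ cell RNA-binding protein named after its values were seen, stood at 10.78 there and at 1.66 to 5.78 on the others. The mean of the 14 uterine markers was 13.60 on GD100 BPA replicate 1, lower than on any other array, where it was at least 13.72. The mean of the 10 ovarian somatic markers reached 6.03 in the GD100 BPA group, against at most 5.67 in GD100 controls. It was at most 5.39 in GD165 controls and 5.37 in GD165 BPA uteri. How this material bears on the results was not tested beyond leaving the array out.

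In the BPA-exposed uteri, 8 of the 9 genes were lower at GD165 than at GD100 at an adjusted p under 0.01, in a limma fit over all 17 arrays and 20217 probes. Of all probes, 4.86% passed in this direction. The falls ran from 1.33 log2 units for GAS2 to 6.08 for AMBN, with a median change of -3.06 over the 9, beside a median of -0.05 over all probes. CSMD3 did not pass (adjusted p = 0.0279). The fit pools the spread over all 17 arrays, among them the controls that chose the genes. With only the BPA-exposed arrays in the fit 7 of the 9 passed, beside 591 of the 20217 probes called lower. CRYGC then did not pass either (adjusted p = 0.0472). For all 9 genes every GD165 BPA array lay below every GD100 BPA array, which held in this direction for 15.4% of all probes. Without GD100 BPA replicate 1 the number called in the fit of all 4 groups was again 8 (3.68% of all probes fell then, and 7.42% passed in either direction). The median change was then -2.58, and all 9 genes were again free of overlap (17.2% of all probes). Leaving out this array moved the change of each gene other than CRYGC by 0.18 log2 units or less. The changes then ran from -1.35 for GAS2 to -6.15 for AMBN, and CSMD3 again did not pass (adjusted p = 0.0425).

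**Figure D1:**
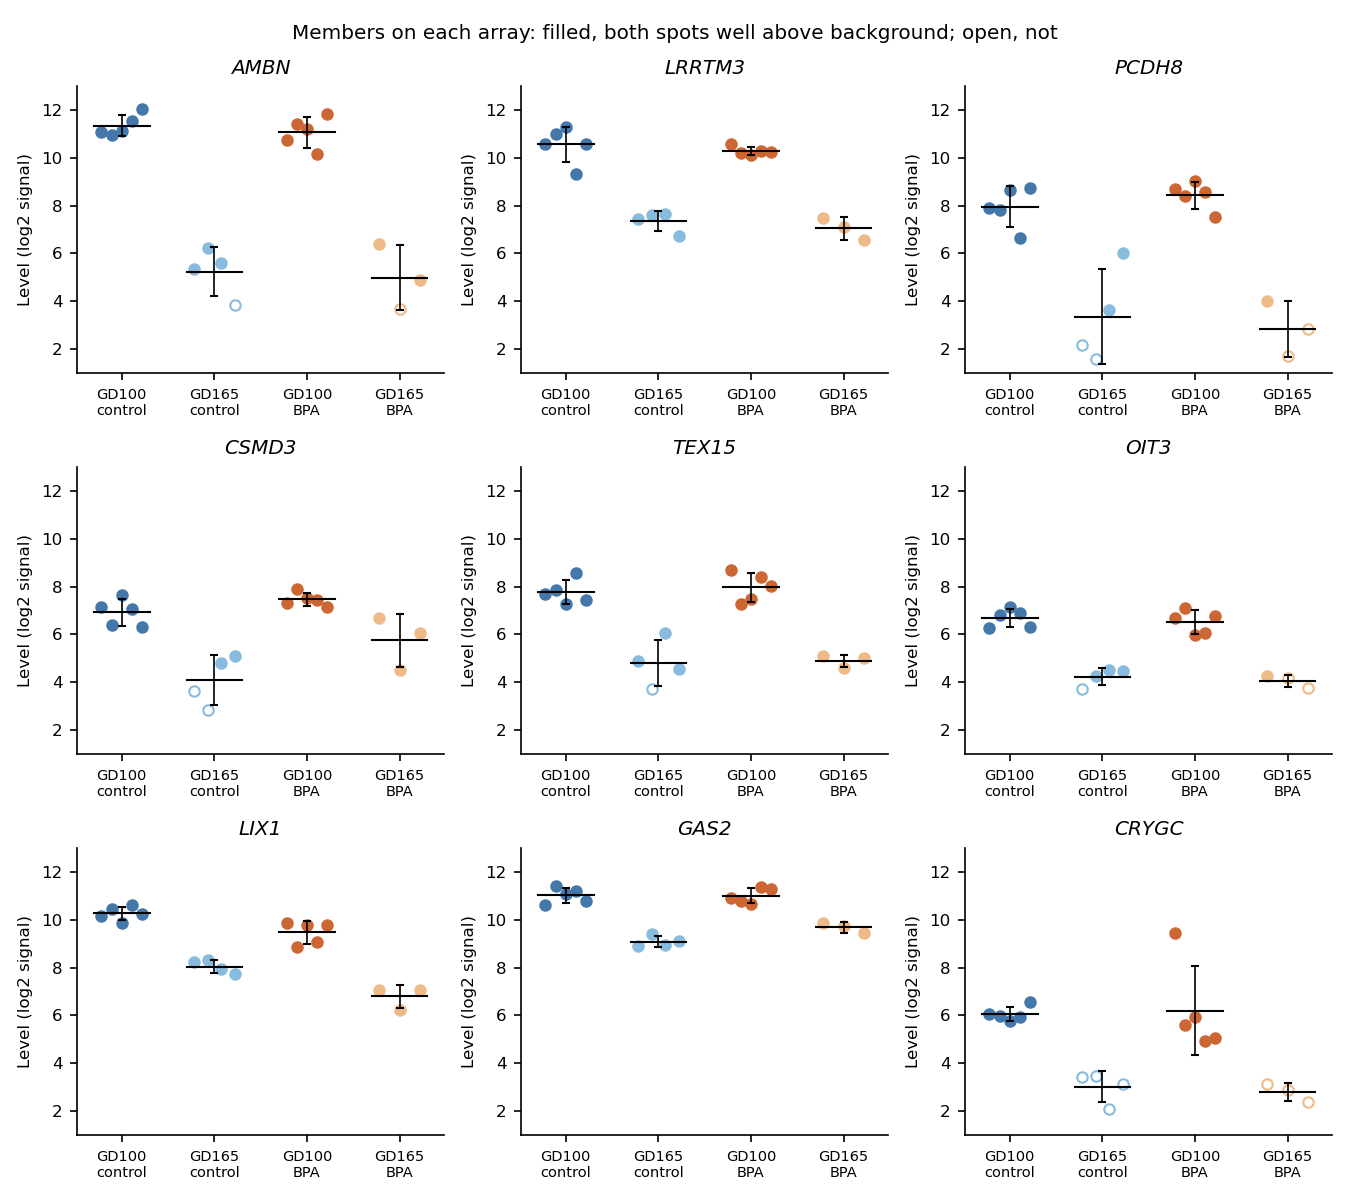
Level (log2 signal) of each of the 9 genes on the 17 arrays, by group. Points are arrays, filled where both spots were well above background and open where not, and black lines and bars give the group mean and SD (n = 5, 4, 5 and 3 from left to right in each panel). In all 9 panels the GD165 BPA arrays lie below the GD100 BPA arrays, and all 7 GD165 points of CRYGC are open.

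The 9 genes were not alike in how far they fell below the measurable range. At GD165, 44 of the 63 values of the 9 genes were measured, 19 of 27 in BPA-exposed uteri and 25 of 36 in controls. LRRTM3, LIX1 and GAS2 were measured on all 7 GD165 arrays, so they were lower but present. CRYGC was measured on no GD165 array with either spot. The other 5 genes were measured on some GD165 arrays and not on others. At GD100 all 9 were measured on all 10 arrays, and no spot of these genes was saturated.

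AMBN showed the largest fall. The GD100 BPA arrays gave levels of 10.76, 11.41, 11.19, 10.15 and 11.83 in replicates 1 to 5, and the GD165 BPA arrays 6.39, 3.68 and 4.91 in replicates 3, 4 and 5. The lowest GD100 value exceeded the highest GD165 value by 3.76 log2 units. The change was -6.08 (SE 0.58; adjusted p = 2.53e-05), a 67.5-fold lower signal. Of the 3 GD165 BPA arrays, 2 measured the gene, and replicate 4 did not. The fold rested on single GD165 BPA arrays: it was 42.8 without replicate 4 and 110 without replicate 3, and it was 22.5 with the normexp background correction. The controls went from 11.35 ± 0.46 (SD, n = 5) to 5.24 ± 1.01 (n = 4), a change of -6.10 (SE 0.53), with the GD165 values at 5.36, 6.21, 5.58 and 3.82. Within each age the BPA and control arrays overlapped.

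Few genes that act with AMBN in enamel and dentine could be followed, since 3 of the 10 found on the array were measured on all 17 arrays. MMP20, DSPP and DMP1 were measured on no array, so these had no measured range in which to fall. AMELX, the gene of amelogenin, was measured on 2 of the 5 GD100 BPA arrays and on all 3 GD165 BPA arrays. Its change was 0.91 (SE 0.39; adjusted p = 0.113), and 0.62 (SE 0.36) in controls. Of the 10 enamel and tooth matrix genes, 0 passed in either direction in BPA-exposed uteri, where 9.68% of all probes passed, and their median change was 0.13. At an unadjusted p under 0.05, 34.5% of all probes passed this contrast. The smallest p in the list belonged to TUFT1, the gene of tuftelin, which changed by 0.39 (SE 0.10; adjusted p = 0.0160), and to IBSP, bone sialoprotein, which was measured on no GD100 array. IBSP passed, higher, when GD100 BPA replicate 1 was left out (adjusted p = 0.00323), though only 1 of the 3 GD165 BPA arrays measured it. ENAM, which encodes enamelin and lies next to AMBN in the RefSeq order of macaque genes, was measured on 2 of the 5 GD100 BPA arrays. No other array of any group measured it. It changed by -0.22 (SE 0.26; adjusted p = 0.585) in BPA-exposed uteri and by 0.07 (SE 0.24) in controls.

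LRRTM3 fell without leaving the measured range. Its GD100 BPA levels lay close together at 10.58, 10.21, 10.12, 10.28 and 10.26, and its GD165 BPA levels were 7.46, 7.12 and 6.55. The change was -3.24 (SE 0.35; adjusted p = 6.05e-05), or 9.47-fold, and 2.65 log2 units separated the groups. Among the 16435 probes measured on all 8 BPA-exposed arrays only 4 fell further. The controls changed by -3.19 (SE 0.32), from 10.55 ± 0.74 (SD, n = 5) to 7.36 ± 0.43 (n = 4). The spread of the GD100 controls came mainly from replicate 4 at 9.34, below the 10.57 to 11.28 of the other 4.

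PCDH8 had the second largest fall and the widest spread between animals of the 9. Its GD100 BPA levels were 8.69, 8.39, 9.04, 8.56 and 7.53, and its GD165 BPA levels 4.03, 1.70 and 2.84. Only replicate 3 of the GD165 BPA group measured it, and on replicate 4 the software had replaced the signal of a spot by a small positive stand-in. The fitted change was -5.58 (SE 0.81; adjusted p = 0.000366), but its size rests on signals near background. With such signals raised to the lowest level that was well above background on each array it was -4.53 (SE 0.53; adjusted p = 7.52e-05), and with the normexp correction -2.72 (SE 0.33; adjusted p = 6.27e-05). It was -5.00 without GD165 BPA replicate 4 and -6.17 without replicate 3. The GD165 controls ranged from 1.58 to 6.01, and their highest array, replicate 6, exceeded all 3 GD165 BPA arrays. The control change was -4.60 (SE 0.75). The spread within groups was 1.20 log2 units, larger than that of 98.6% of all probes.

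CSMD3 was the gene whose fall did not pass in BPA-exposed uteri. GD100 BPA levels were 7.31, 7.88, 7.53, 7.45 and 7.14, and GD165 BPA levels 6.68, 4.51 and 6.05, all measured. The groups did not overlap, by 0.46 log2 units. The change was -1.72 (SE 0.51; adjusted p = 0.0279), and it ranged from -1.10 to -2.19 when single arrays were left out, with the smallest fall without GD165 BPA replicate 4. In controls the level went from 6.92 ± 0.57 (SD, n = 5) to 4.10 ± 1.04 (n = 4), a change of -2.82 (SE 0.47), and 2 of the 4 GD165 controls did not measure it.

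Relatives of these 3 genes gave calls in both directions. Of 17 LRRTM, SLITRK, FLRT, neuroligin and neurexin genes, all concerned with adhesion at synapses and elsewhere, 4 fell and 0 rose in BPA-exposed uteri, where 4.86% of all probes fell and 9.68% passed in either direction. The median change of the 17 was -0.48. SLITRK4 fell by 1.85 (SE 0.21; adjusted p = 8.09e-05), SLITRK2 by 1.02 (SE 0.23), SLITRK6 by 0.90 (SE 0.17) and NLGN2, which encodes neuroligin 2, by 0.62 (SE 0.10). Without GD100 BPA replicate 1 the count was 3, since SLITRK2 no longer passed (adjusted p = 0.0140). In that fit 3.68% of all probes fell and 7.42% passed in either direction. LRRTM2 and LRRTM4, the paralogs of LRRTM3 that were measured on all arrays, changed by -0.34 (SE 0.20; adjusted p = 0.246) and 0.71 (SE 0.25; adjusted p = 0.0555). In controls 4 of the 17 passed lower and 1 higher, where 5.2% of all probes passed lower and 11.5% in either direction.

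Of 9 other delta protocadherins, 2 fell and 1 rose in BPA-exposed uteri, beside 4.86% of all probes lower and 9.68% in either direction. PCDH17 fell by 0.85 (SE 0.19), PCDH18 fell by 0.79 (SE 0.10), and PCDH1 rose by 0.69 (SE 0.10). All 3 were measured on every array, and the median of the 9 was 0.07. PCDH9 passed too, lower, when GD100 BPA replicate 1 was left out (adjusted p = 0.00165), though only 1 of the 3 GD165 BPA arrays measured it. Among 9 genes with CUB or sushi domains, SEZ6, a seizure-related membrane protein, fell by 0.95 (SE 0.23). SUSD2, a marker of mesenchymal and endometrial stromal cells, rose by 1.07 (SE 0.23). Without GD100 BPA replicate 1 neither SEZ6 nor SUSD2 passed (adjusted p = 0.0206 and 0.0103), where 3.68% of all probes fell and 7.42% passed in either direction. The nearest relatives of CSMD3 by name, CSMD1 and CSMD2, changed by 0.39 (SE 0.28) and -0.44 (SE 0.25), and neither passed.

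TEX15 fell to a narrow range of levels in BPA-exposed uteri. GD100 BPA levels were 8.67, 7.26, 7.48, 8.39 and 8.01, and the 3 GD165 BPA levels lay within 4.61 to 5.08, all measured. The change was -3.06 (SE 0.44; adjusted p = 0.000321), or 8.35-fold, with 2.18 log2 units between the groups. It was -2.88 (SE 0.44; adjusted p = 0.000891) without GD100 BPA replicate 1, where TEX15 stood at 8.67 against 7.26 to 8.55 on the other GD100 arrays. In controls the change was -2.96 (SE 0.40), with GD165 values from 3.71 to 6.04.

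Other germ cell genes did not pass with TEX15. Of the 18 found, 0 passed in either direction in either arm, where 9.68% of all probes passed after BPA and 11.5% in controls. In BPA-exposed uteri 14 of the 18 had a negative change, and their median change was -0.68, beside -0.05 over all probes. SYCP1, of the synaptonemal complex, had the smallest p (adjusted p = 0.0144); it was measured on all 5 GD100 BPA arrays and marked on no GD165 BPA array, which makes it at least 5.50-fold lower. That bound rests on GD100 BPA replicate 1, where SYCP1 stood at 9.13 against 4.31 to 6.99 on the other 4 arrays, and it was at least 3.33-fold without it (adjusted p = 0.0258). DMC1, a meiotic recombinase, changed by -1.17 (SE 0.36; adjusted p = 0.0329). After BPA, TEX15 did not overlap between ages, and neither did SYCP1, at 4.31 to 9.13 at GD100 and 1.58 to 2.66 at GD165. The mean level of the 18 genes did overlap, at 6.12 to 9.60 in GD100 BPA and 5.34 to 6.81 in GD165 BPA uteri. That overlap came from GD165 BPA replicate 5 at 6.81, while replicates 3 and 4 stood at 5.34 and 5.57. Without GD100 BPA replicate 1 the highest GD100 BPA mean was 6.77 and the median change of the 18 was -0.19. Of the 18, 12 were then negative and 0 passed, beside 7.42% of all probes in either direction.

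**Figure D2:**
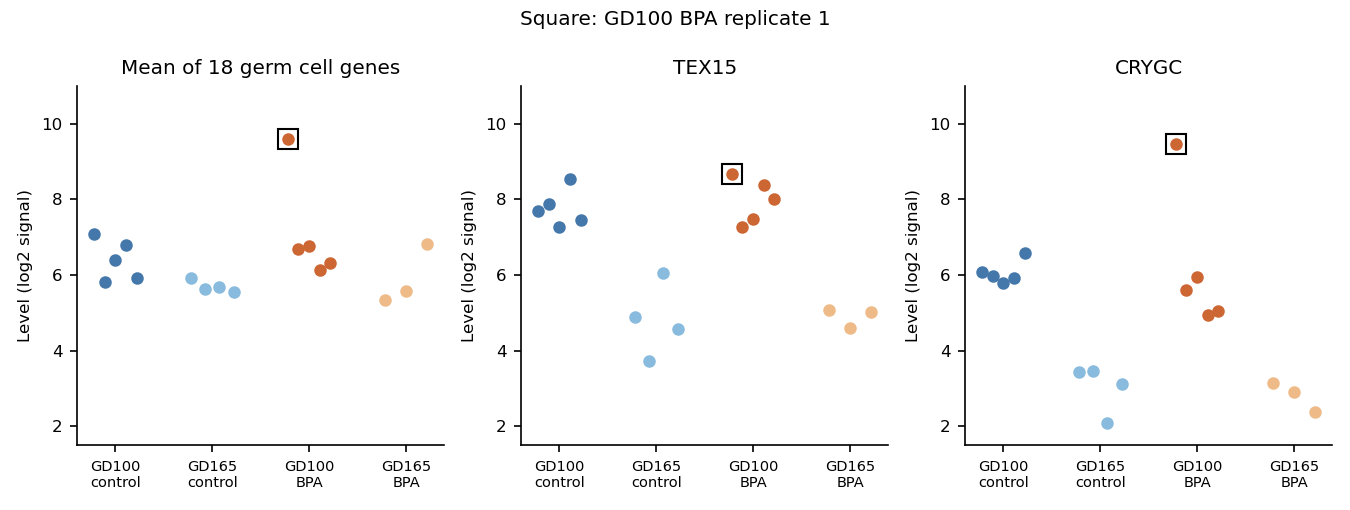
Level (log2 signal) by array and group of the mean of 18 germ cell genes, of TEX15 and of CRYGC, with GD100 BPA replicate 1 marked by a square. That array stood at 9.60 for the germ cell mean and at 9.45 for CRYGC, well apart from its group, and at 8.67 for TEX15, where the next GD100 array stood at 8.55.

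CRYGC was the gene that depended most on a single array. GD100 BPA levels were 9.45, 5.60, 5.93, 4.94 and 5.04, so replicate 1 was 16.8-fold above the mean of the other 4. No GD165 BPA array (3.14, 2.90 and 2.38) and no GD165 control (3.43, 3.46, 2.08 and 3.12) was marked well above background. The signal was therefore at least 5.38-fold lower at GD165 in BPA-exposed uteri, and at least 3.06-fold lower without GD100 BPA replicate 1. The fitted change passed with that array (-3.39, SE 0.75, adjusted p = 0.00564) and without it (-2.58, SE 0.33, adjusted p = 0.000329), but leaving out GD100 BPA replicate 3 or any of the 3 GD165 BPA arrays took the adjusted p to 0.0113 to 0.0274. Controls went from 6.07 ± 0.30 (SD, n = 5) to below the limit, at least 5.21-fold lower.

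No other crystallin probe was raised on that array as far as CRYGC. On GD100 BPA replicate 1, the other 12 crystallin probes differed by -0.998 to 1.06 log2 units from the mean of the other 4 GD100 BPA arrays, against 4.07 for CRYGC. Of the 12, 3 had their highest level of all GD100 arrays there. On the same array 74 probes, CRYGC included, exceeded that mean by as much as CRYGC did, among them those of DAZL and NANOG, named after their values were seen.

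Across the 12 other crystallin genes, 1 fell and 1 rose in BPA-exposed uteri, counts near the 4.86% of all probes that fell and the 9.68% that passed in either direction. CRYGD, which neighbours CRYGC in the gamma crystallin cluster, fell by 2.17 (SE 0.48; adjusted p = 0.00554) and was measured on all 17 arrays. Its change was again -2.17 (SE 0.52) without GD100 BPA replicate 1 but did not pass (adjusted p = 0.0112). Its control change was -2.31 (SE 0.44). CRYAB, the small heat shock protein alpha B crystallin, which muscle also expresses, rose by 1.41 (SE 0.18; adjusted p = 0.000153). CRYGB, the neighbour on the other side, changed by -1.49 (SE 0.96; adjusted p = 0.292), with 2 of 3 GD165 BPA arrays measuring it. Gamma crystallins are similar in sequence, and cross-hybridization between their transcripts was not tested.

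OIT3 fell to the edge of the measured range with little spread. GD100 BPA levels were 6.67, 7.12, 5.98, 6.05 and 6.78, and GD165 BPA levels 4.26, 4.16 and 3.78. Both spots were marked on replicate 3 of the GD165 BPA group and 1 of the 2 on replicates 4 and 5. The change was -2.45 (SE 0.28; adjusted p = 7.92e-05), and the control change -2.45 (SE 0.25). Of 10 other genes with a zona pellucida domain, 0 passed in either arm, where 9.68% of all probes passed after BPA and 11.5% in controls. The smallest p was that of UMOD, uromodulin of the kidney, at -0.42 (SE 0.15; adjusted p = 0.0620), followed by ZP4 of the egg coat, for which 1 GD165 BPA array accounted for the only measured value.

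LIX1 was lower after BPA than in controls at both ages while falling in both arms. GD100 BPA levels were 9.86, 8.85, 9.78, 9.06 and 9.79, and GD165 BPA levels 7.07, 6.23 and 7.08. The change was -2.68 (SE 0.27; adjusted p = 4.06e-05), or 6.39-fold, beside -2.22 (SE 0.24) in controls. GD165 controls stood at 8.21, 8.31, 7.93 and 7.72, all above the 3 BPA-exposed uteri of that age. All arrays measured the gene, so that the order of the groups from high to low was GD100 control (10.27 ± 0.28), GD100 BPA (9.47 ± 0.47), GD165 control (8.04 ± 0.27) and GD165 BPA (6.79 ± 0.49), with SD. Neighbours in this order did not overlap, but the 2 GD100 groups were only 0.0025 log2 units apart at the closest. The controls chose the gene, which favours high GD100 control values, so the lower GD100 BPA level carries no test.

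GAS2 showed the smallest fall but the tightest groups. GD100 BPA levels were 10.91, 10.79, 10.65, 11.39 and 11.30, and GD165 BPA levels 9.87, 9.74 and 9.43. The change was -1.33 (SE 0.20; adjusted p = 0.000525), or 2.51-fold, with no overlap. Controls fell further, by 1.93 (SE 0.19), from 11.02 ± 0.33 (SD, n = 5) to 9.09 ± 0.23 (n = 4), and every GD165 control lay below every GD165 BPA array, by 0.03 log2 units at the closest. Of 5 relatives 1 fell and 1 rose, both with and without GD100 BPA replicate 1. Beside them, 4.86% of all probes fell and 9.68% passed in either direction, or 3.68% and 7.42% without that array. GAS2L3, which also binds actin and microtubules, fell by 0.79 (SE 0.15; adjusted p = 0.00256), and DST, the cytoskeletal linker dystonin, rose by 0.84 (SE 0.13; adjusted p = 0.000592). GAS2L1, GAS2L2 and MACF1 did not pass.

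**Figure D3:**
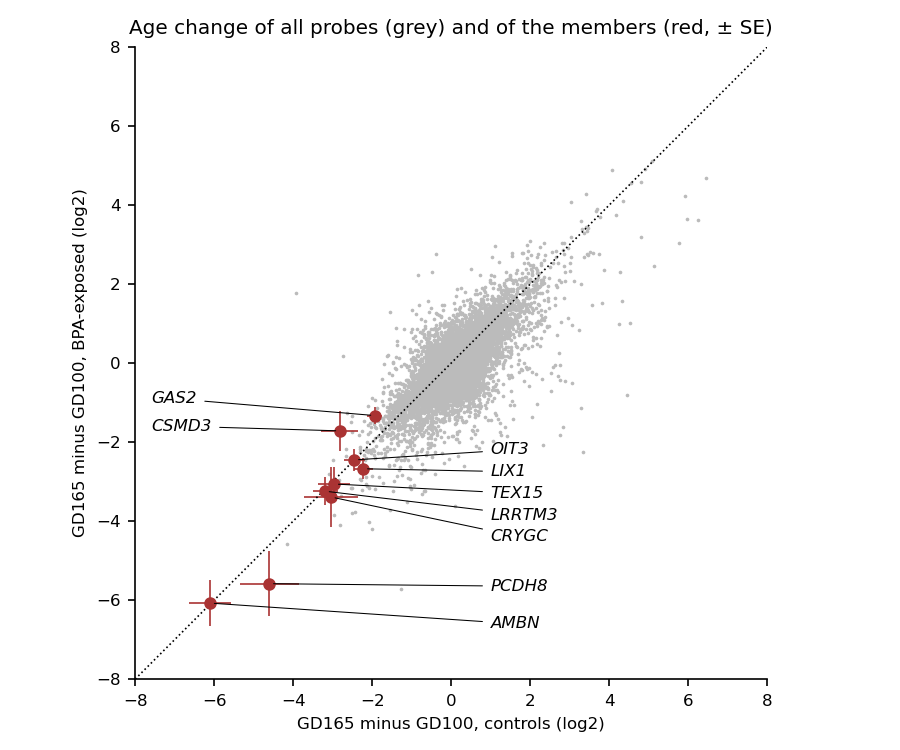
Change from GD100 to GD165 (log2) in BPA-exposed uteri (vertical) against controls (horizontal), for all 20217 probes in grey and the 9 genes in red with SE bars. The dotted line marks equal change. The control change chose the genes, whereas the BPA change uses other arrays, and it runs from -1.33 for GAS2 to -6.08 for AMBN. The SE of both rests on a spread pooled over all 17 arrays.

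Set side by side, the 2 arms gave like sizes of fall for most of the 9 genes. The control median was -2.96, against -3.06 after BPA, and 6 of the 9 fell further in the BPA-exposed arm. The difference between the age changes was smallest for OIT3, at -0.0015 (SE 0.38), and largest for CSMD3, at 1.10 (SE 0.70), followed by PCDH8 at -0.98 (SE 1.11) and GAS2 at 0.60 (SE 0.28). The controls chose the genes, which favours high GD100 and low GD165 control values and so a large control fall. These differences therefore carry no test.

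Comparing BPA with control at the same age, the median over the 9 genes was -0.01 at GD100 and -0.22 at GD165. The choice of the genes by the controls leans BPA minus control low at GD100 and high at GD165. The same-age differences and the shares beside them are therefore a description without test. At GD165 CSMD3 was higher by 1.65 (SE 0.54) with overlapping arrays, GAS2 higher by 0.59 (SE 0.21) and LIX1 lower by 1.25 (SE 0.28), the last 2 without overlap. At this age 5.24% of all probes lay wholly lower after BPA and 2.07% wholly higher. LIX1 was lower by 0.80 (SE 0.23) at GD100 too, or by 0.89 (SE 0.24) without GD100 BPA replicate 1, where 0.401% of all probes lay wholly lower. In the fit across all probes, 0 passed an adjusted p of 0.01 at either age, with 767 at an unadjusted p under 0.05 at GD100 and 1740 at GD165. On the slide that held both GD165 groups LIX1 differed by -1.57, and on the 3 slides that held both GD100 groups by -0.61, -0.66 and -0.0025.

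**Figure D4:**
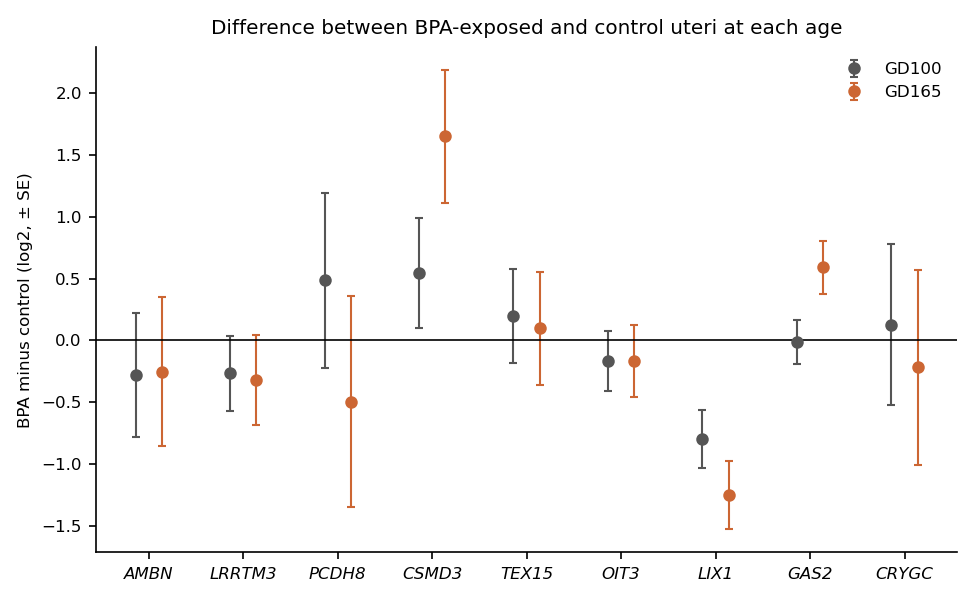
BPA minus control (log2, bars are SE) for each gene at GD100 (grey) and GD165 (orange), as a description without test. LIX1 lies below 0 at both ages (-0.80 and -1.25), and CSMD3 (1.65) and GAS2 (0.59) lie above 0 at GD165.

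The arrays lay on 6 slides, each scanned at its own time. With slide as a block in the fit, 5 of the 9 genes passed in BPA-exposed uteri: AMBN, LRRTM3, TEX15, OIT3 and LIX1. In that fit 269 of the 20217 probes were called lower. PCDH8 (-4.97, adjusted p = 0.0200), GAS2 (-1.31, adjusted p = 0.0174) and CRYGC (-3.68, adjusted p = 0.0236) kept their direction but not the threshold. CSMD3, which had not passed without the block, changed by -1.02 (SE 0.63, adjusted p = 0.341). On the only slide that held both BPA-exposed ages, with 1 array of each, all 9 genes were lower at GD165, by 1.09 for CSMD3 to 6.92 for AMBN.

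Proliferation genes moved with the same contrast. All 11 markers found fell in BPA-exposed uteri, by 0.77 to 1.33, and all 11 fell in controls. Over all probes 4.86% were called lower in BPA-exposed uteri and 5.2% in controls. MKI67, which marks cycling cells, fell by 1.33 (SE 0.27), MCM2 of the replication licensing complex by 1.31 (SE 0.19), TYMS, thymidylate synthase, by 1.21 (SE 0.23) and RRM2, of ribonucleotide reductase, by 1.13 (SE 0.26). Their mean level was 11.39 to 11.74 at GD100 and 10.19 to 10.73 at GD165. Without GD100 BPA replicate 1, 10 of the 11 passed in BPA-exposed uteri, beside 3.68% of all probes lower, and CDK1 did not (adjusted p = 0.0132). Of the 9 genes, 8 had a larger change than any of these markers. In bulk tissue, fewer cells of a type and less RNA per cell cannot be told apart, and the part of cycling cells in the falls was not tested.

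Markers of other tissues gave mixed counts in BPA-exposed uteri, where 4.86% of all probes fell and 9.68% passed in either direction. Among uterine markers EPCAM, of epithelium, rose by 1.65 (SE 0.26) and ESR1, the estrogen receptor, by 0.95 (SE 0.17), and 0 fell. FOXL2 was the only 1 of 10 ovarian somatic markers to pass, with a fall of 0.84 (SE 0.16), while FSHR, STAR, CYP11A1 and LHCGR were measured on no array. PAX8 and PAX2, of mesonephric and Müllerian epithelium, rose by 0.93 (SE 0.20) and 0.58 (SE 0.14), the only 2 of 10 mesonephric and renal markers to pass. Of 10 hepatocyte markers TTR, transthyretin, passed, higher (adjusted p = 0.00691); its level was 7.61 at GD165, measured on all 3 arrays, and it was measured on no GD100 BPA array, so the size of its rise is not given. ALB was measured on 2 GD100 BPA arrays and on no GD165 BPA array. Of 10 neuron markers only ELAVL3 passed, lower, and it was measured on no array. EPCAM, ESR1 and FOXL2 still passed without GD100 BPA replicate 1, whereas PAX8, PAX2, TTR and ELAVL3 did not (adjusted p = 0.0123, 0.0210, 0.0130 and 0.0212).

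**Figure D5:**
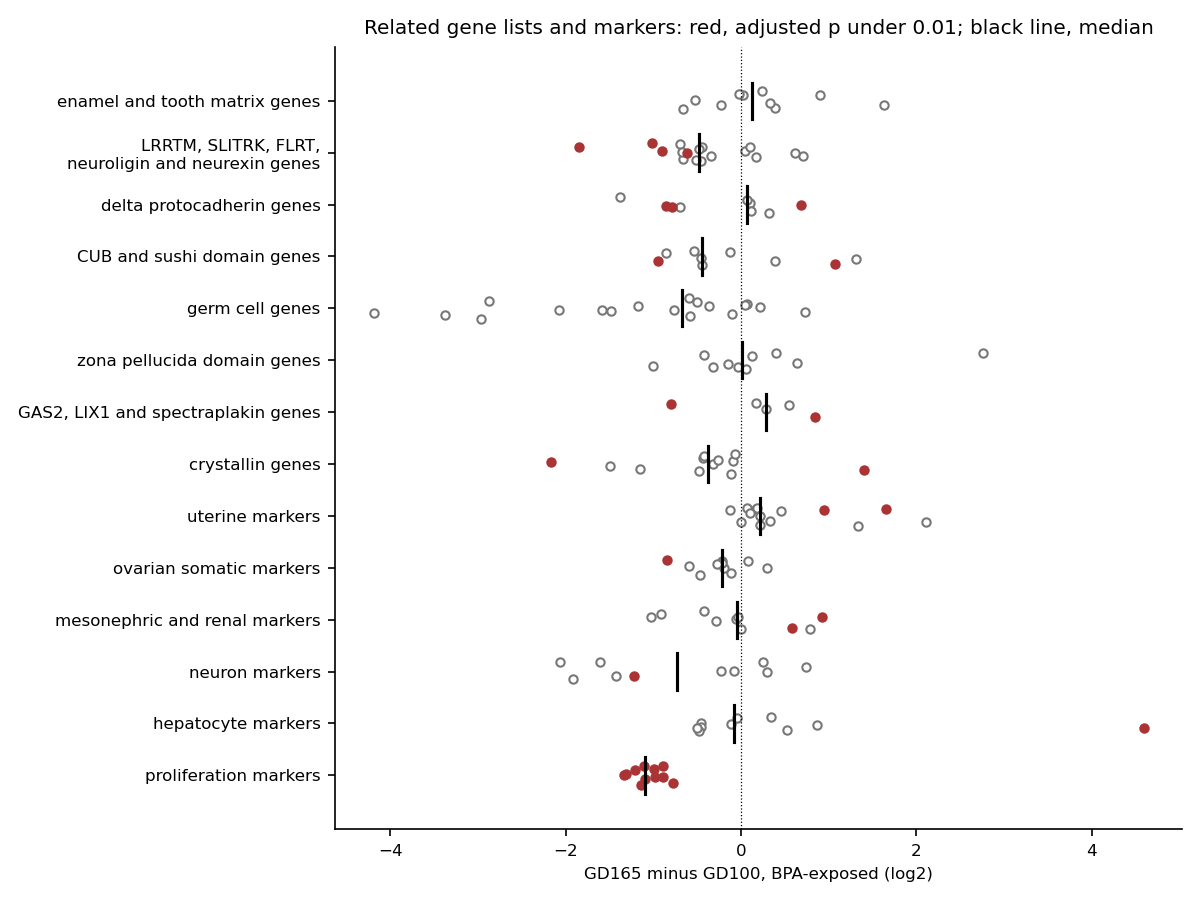
Change from GD100 to GD165 in BPA-exposed uteri (log2) of each gene of 14 lists. Red points passed an adjusted p of 0.01, open points did not, and black lines are list medians. All 11 proliferation markers lie between -1.33 and -0.77, and no gene of the enamel, germ cell or zona pellucida lists passed.

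The genes next to the 9 on the chromosome were only partly covered by the array. Of 18 neighbouring protein-coding genes in the RefSeq order of macaque genes, 11 had a probe with that name, and 1 of these, CRYGD, was called lower, which is 9.09% beside the 4.86% of all probes, and CRYGD did not pass without GD100 BPA replicate 1. The median change of the 11 was -0.13, and their changes ran from -2.17 for CRYGD to 0.48 for CTNNA3. CTNNA3, the neighbour of LRRTM3, changed by 0.48 (SE 0.20; adjusted p = 0.105), and OLFM4, the neighbour of PCDH8, by -1.85 (SE 0.59; adjusted p = 0.0371). These neighbours were looked up after the values of the 9 genes were known.

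Among 14869 named probes measured on every GD100 array, those whose centred levels over the 17 arrays lay nearest to the mean profile of the 9 genes were GABRA2, IGF2BP1, ATP2B3, GRIN3A and C20orf58. Their root mean square difference from that profile was 0.52 to 0.57 log2 units, and that of the 9 genes themselves ran from 0.46 for LRRTM3 to 1.55 for AMBN. GABRA2, a subunit of the GABA A receptor, went from 8.64 to 5.43 in BPA-exposed uteri and from 8.65 to 6.41 in controls. GRIN3A, a subunit of the NMDA receptor, went from 12.04 to 9.69 and from 12.40 to 9.74. IGF2BP1, a fetal RNA-binding protein, was marked on no GD165 array, at least 3.26-fold lower after BPA and at least 2.35-fold lower in controls. ATP2B3, a plasma membrane calcium pump, went from 6.62 to 3.46 in BPA-exposed uteri, where no GD165 array measured it with both spots and 2 marked 1 of them, so its change is not given as a size. C20orf58 changed by -2.33 (SE 0.25). The profile was built from age-selected genes, so these names describe likeness only.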

How the data were processed

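Total RNA of 17 fetal uteri was hybridized to 1-color Agilent rhesus arrays. Per the submitters' processing notes and the file headers the authors used Agilent Feature Extraction 9.5; the deposited values are linear intensities after background subtraction, with spots below background replaced by small stand-ins, and flags per spot. The authors' value table held the same signals. No counts exist, and the number of arrays limits precision. Here log2 signals of the 2 spots were averaged without control or outlier spots, each array was then scaled by its 75th percentile (mean log2 12.62). limma 3.58.1 (R 4.3.3) was fitted to all 4 groups, with Benjamini-Hochberg adjustment over 20217 probes and a threshold of 0.01. Bounds ("at least") use, per array, the higher of the probe's signal and the lowest signal well above background. Replicates are separate fetuses.

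The 9 genes, the lists, the tests and the alternatives were chosen with earlier results of these data known. Named are the 9 genes, list members past the threshold (up to 4 by size, or the 2 smallest p where none passed) and the 5 nearest probes; exceptions are stated. A list gene with several probes is represented by its brightest probe on average. Names came from the array descriptions (88.8% of probes). The array's coordinates are of uncertain build and are not given. On simulated data 86.0% of 200 probes changed 4-fold were recovered in this contrast, and 19.5% of those changed 1.5-fold. Only those 200 of the 20217 probes changed in the simulation, whereas 1956 passed in the data, so recovery in the data may differ. Python 3.11.15 with numpy 2.4.6 and pandas 2.3.3 was used.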

Additional observations from a re-analysis of the deposited data

Results flagged for a closer look

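One value lay far from its group by Dixon's criterion, which was applied to 27 groups of 4 or 5 arrays, where chance gives about 1 in 20. CRYGC on GD100 BPA replicate 1 stood at 9.45, and the gap to the next array was 0.78 of the range of the group. The other 4 arrays averaged 5.38 ± 0.47 (SD). The same array had the highest mean of the 18 germ cell genes (9.60), and the relation between these values was not tested.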

How the results depend on the processing

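Of 297 values of the 9 genes under the alternatives for GD165 BPA minus GD100 BPA, all 297 were negative and 280 kept their side of the threshold or stayed within the spread. AMBN, LRRTM3, TEX15, OIT3 and LIX1 passed under each of 31 alternative fits. CRYGC passed in 21 of 31, with adjusted p from 0.000329 to 0.278, and CSMD3 in 1, the normexp correction (0.00341). The median fall in BPA-exposed uteri was -1.78 with normexp and an offset of 50; the control median was -1.80 with normexp, -2.54 with signals raised to the floor, -2.49 with error weights, -3.21 with slide as a fixed block, -3.57 and -2.69 within the 2 slides that held both control ages, and -2.60 to -3.06 when single arrays were left out (lowest without GD165 control replicate 3). With slide as a fixed block 5 of the 9 genes were called. Probes called lower over all 20217 numbered 982, but 389 without scaling, 591 with only the compared groups, 269 with the slide block, 2333 at a threshold of 0.05, and 478 to 1100 when single arrays were left out (fewest without GD165 BPA replicate 4, and 645 without replicate 5). The cause was not tested. Same-numbered arrays of the BPA groups are different animals and did not deviate together (correlations 0.00074, 0.085 and 0.015); with the replicate block 7 of 9 genes and 721 probes were called lower. Each gene had 1 probe, so the mean over probes was not run.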
